A study of Homo sapiens with 2 samples.

Results

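The ion-pumping ATPases of HCT116, an established line of human colon cancer cells, were examined for recovery with CNBP, whose zinc knuckles bind RNA and single-stranded DNA. Members were taken by name, as every row whose symbol marks a subunit or accessory protein of the vacuolar ATPase (ATP6 prefix, V-type) or a P-type pump or flippase (ATP1 to ATP3, ATP7 to ATP13). Of 10836 protein-coding rows, 40 met this rule, 18 V-type and 22 P-type. In RefSeq, 64 protein-coding symbols follow the same rule, and the other 24 were not analysed here.

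HCT116 cells were irradiated with ultraviolet light to crosslink RNA to protein, and a sonicated lysate was incubated with beads that carried an antibody against CNBP. RNA from the precipitate (CNBP RIP) and RNA labelled as input were each sequenced as 1 library, with no other treatment or genotype in either group. The study made these libraries to find mRNAs that associate with CNBP, and a library made with a control antibody was not analysed here. With 1 library per group there is no replicate check, no spread and no test, and a ratio cannot separate binding by CNBP from other recovery in the precipitate.

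Levels are FPKM, fragments scaled to transcript length and to the mapped fragments of the library, so that genes of different length can be compared. The FPKM of the table summed to 109684 for the RIP and 214387 for the input, and the read depth is unknown. For each gene 1 was added to both FPKM values, the log2 of the RIP over the input was taken as the log2 ratio, and every fold between RIP and input below is on this scale, which understates the change of low genes. Over all 10836 rows the median ratio was 0.28, or 0.85 once both libraries were rescaled to the mean of their sums. The table lists genes with at least 0.5 FPKM in either library. Of 8 markers of colon epithelium, 6 had a row, with summed FPKM of 747 in the RIP and 1482 in the input. Of 9 markers of blood, fibroblasts and endothelium only COL1A1 did, at 4.92 FPKM in the RIP against 0.199 in the input.

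The vacuolar ATPase is a rotary proton pump that acidifies lysosomes, endosomes and secretory vesicles. Its soluble V1 sector hydrolyses ATP and turns a rotor, and its membrane V0 sector carries protons through a ring of small proteolipid subunits. P-type pumps are built otherwise, around a large polypeptide that is phosphorylated by ATP in each cycle, and they move sodium, potassium, calcium, copper or, in the flippases, phospholipids across a membrane.

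The study describes a GGAG core as the sequence to which CNBP binds in RNA. The letters GGAG were therefore searched on the transcribed strand of the 50 bases that follow each start site in RefSeq (build GRCh38.p14), which covered 27 of the 40 members. The windows below are those of the members with the highest and the lowest ratio of each type among members with a match, with GGAG in capitals.
ATP2A2 (chr12:110280636-110280665, plus strand): cggggctggcgtgcgaaGGAGctggcggca
ATP1B3 (chr3:141876657-141876686, plus strand): ctccccgtaacgaGGAGgtgttctcggccg
ATP6V0A2 (chr12:123712370-123712399, plus strand): tgtggcggcagctGGAGcggcggccgcggt
ATP6V0C (chr16:2513726-2513755, plus strand): ccaacgctgcGGAGatccagaggccggcgg
The members that carry these letters lay at both ends of the ratios, from 3.60 for ATP2A2 to -4.11 for ATP6V0C. Of the 12 V-type members with a window, 7 (58.3%) held GGAG at 1 or more starts, as did 9 of 15 P-type members (60%). The share was 51.8% of the 8370 genes of the table with a window. By window these were 8 of 16 (50.0%) and 10 of 22 (45.5%), beside 36.6% of all 35116 windows and 42.6% of the 12169 windows of genes in the table. The median ratio of V-type members was -1.44 with the letters and -2.02 without, and that of P-type members was 1.26 and 1.33. Over all genes of the table with a window, the medians were 0.41 with the letters and 0.13 without. A match in so short a window is a description of the sequence, not a binding site.

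V-type and P-type genes lay on opposite sides of the input. V-type genes had a median log2 ratio of -0.66, with 10 of 18 lower in the RIP by 1.5-fold or more and 3 higher. P-type genes had a median of 1.56, with 18 of 22 higher by 1.5-fold or more and 1 lower. By this measure 42.6% of all rows were higher and 34.7% lower. At 4-fold, 9 P-type genes were higher and none lower, whereas 6 V-type genes were lower and none higher, beside 12.5% of all rows higher and 13.5% lower. The medians differed by -2.22 (V-type minus P-type). The ranges overlapped, since 14 P-type genes lay above the highest V-type gene and 6 V-type genes below the lowest P-type gene. After rescaling, the V-type median was -0.05, with 8 genes above 0 and 10 below, and the P-type median 2.17, with 21 above 0, beside 0.85 over all rows.

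**Figure D1:**
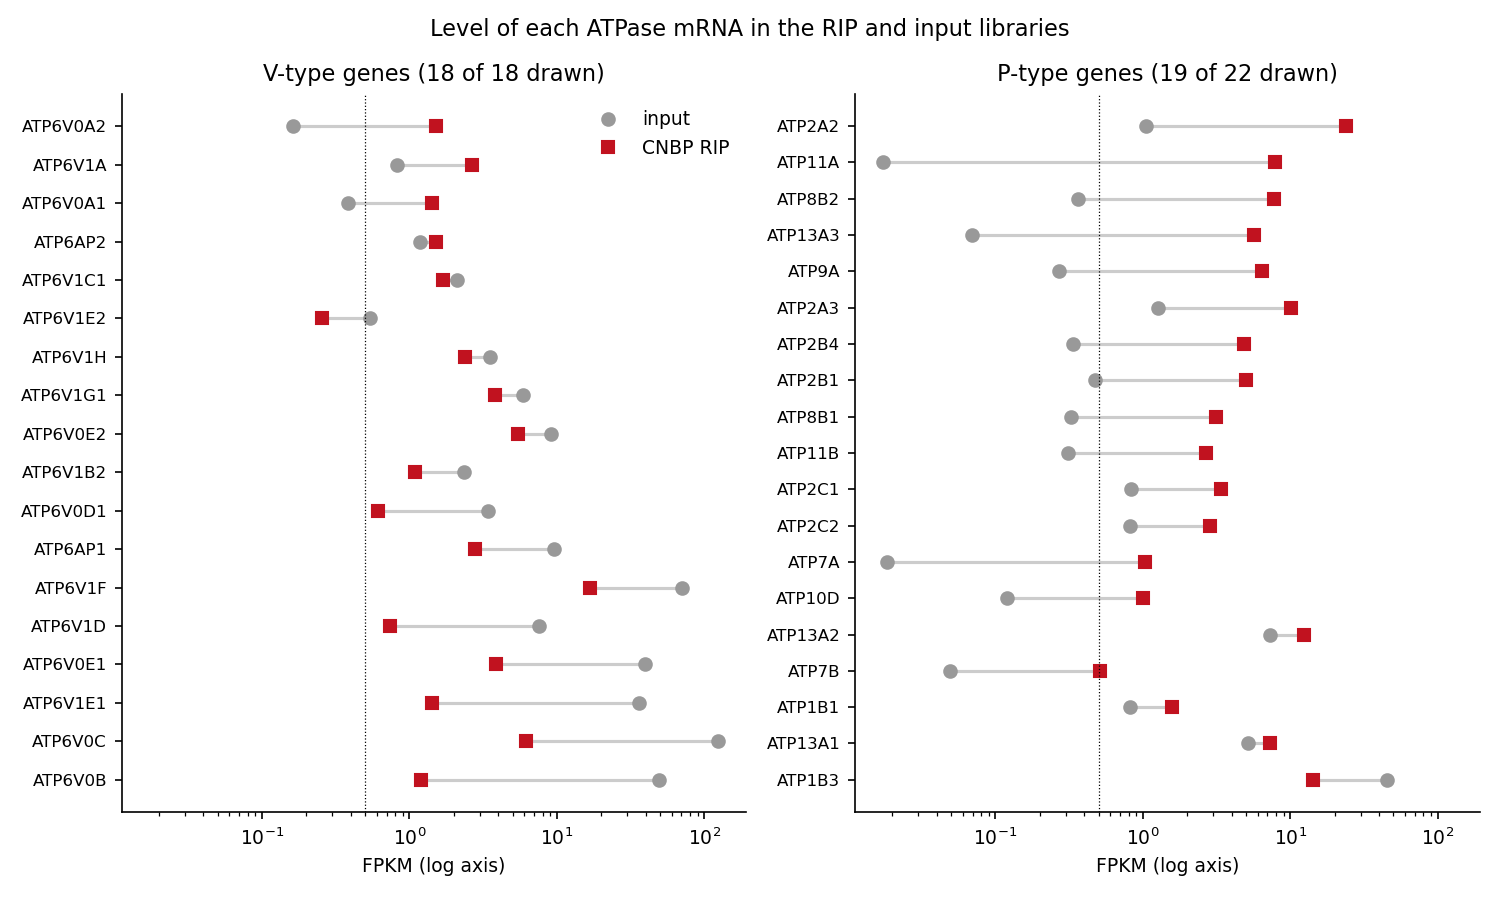
FPKM (log axis) of each V-type gene (left) and P-type gene (right) in the input (grey circles) and the CNBP RIP (red squares), 1 library each, ordered by log2 ratio with the highest on top, for 18 V-type and 19 P-type genes; the dotted line marks 0.5 FPKM. In 18 of the 19 P-type genes drawn the RIP lay to the right of the input, and in 14 of 18 V-type genes to the left.

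The way genes entered the table set the direction of some of these ratios. Of the P-type genes, 12 of 22 were under 0.5 FPKM in the input and had a row through the RIP alone, so that their RIP level had to be the higher. This was so for 2 of 18 V-type genes (ATP6V0A1 and ATP6V0A2) and for 22.1% of all rows. Among genes with at least 0.5 FPKM in the input, a filter chosen after the data were seen, 7 of 10 P-type genes were still higher by 1.5-fold or more and 1 was lower, with a median of 1.15. On the same footing, 10 of 16 V-type genes were lower by 1.5-fold or more and 1 was higher, with a median of -1.06. The share of all such genes was 30.6% higher and 44.5% lower, and their median was -0.30. At 4-fold, 2 of the 10 P-type genes were higher and 6 of the 16 V-type genes lower, beside 9.94% and 17.3% of all such genes. The V-type and P-type medians differed by -2.21 under this filter, beside -2.22 over all members.

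The order of the types in level was turned between the libraries. Folds between the types are ratios of median FPKM with nothing added. In the input the median V-type gene had 4.71 FPKM and the median P-type gene 0.417 FPKM, which is 11.3-fold less. In the RIP the median V-type gene had 1.61 FPKM and the median P-type gene 6.03 FPKM, 3.75-fold more. Because 12 of 22 P-type genes had a row through the RIP alone, their input median had to be low. Among genes with at least 0.5 FPKM in the input, the V-type and P-type medians were 6.72 and 1.85 FPKM in the input and 2.04 and 10.5 FPKM in the RIP. Summed over members, V-type FPKM was 366 in the input and 55.3 in the RIP, and P-type FPKM was 86.2 in the input and 184 in the RIP. Thus the family as a whole held a like share of the table in either library (0.211% of the input and 0.218% of the RIP), but V-type mRNA made up most of it in the input and P-type mRNA in the RIP. In the input, ATP6V0C alone held 33.8% of the V-type sum and ATP1B3 52.5% of the P-type sum.

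Within the V0 sector, the genes of the proton-carrying ring had the lowest ratios. ATP6V0C encodes the c subunit, the main proteolipid of the ring, and had 6.21 FPKM in the RIP against 124 in the input, at a log2 ratio of -4.11 (17.3-fold lower). ATP6V0B encodes the related c″ subunit and had 1.19 FPKM in the RIP against 49.0 in the input, which at -4.51 was the lowest ratio of the family (22.8-fold lower, percentile 1.45 of all rows). Its locus, ENSG00000117410.13_2, lies on chromosome 1 from 44440159 to 44443967 (hg19, plus strand). With a pseudocount of 5 ATP6V0C was the lowest (-3.52 against -3.12 for ATP6V0B), and relative to genes of like span ATP6V1E1 was (-4.29 against -3.61 for ATP6V0B). Within V0, the e subunit gene ATP6V0E1 (-3.60) lay below ATP6V0C (-3.30) relative to genes of like span. ATP6V0C was the most abundant V-type mRNA of the input and came after ATP6V1F in the RIP, whereas ATP6V0B was below the V-type median in the RIP.

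The small e subunits differed from each other. ATP6V0E1 had 3.86 FPKM in the RIP against 39.8 in the input (-3.07), while its paralog ATP6V0E2 had 5.48 and 9.12 FPKM (-0.64). The ratio of ATP6V0E2 was above 0 after rescaling (0.20) and at the median of genes of like span. ATP6V0D1, the d subunit that couples the ring to the rotor stalk, had 0.616 FPKM in the RIP against 3.39 in the input (-1.44).

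The large a subunits, which hold the proton half-channels and anchor the stator, were the V0 genes on the other side. ATP6V0A1 had 1.42 FPKM in the RIP against 0.381 in the input (0.81), and ATP6V0A2 had 1.51 and 0.163 FPKM (1.11), the highest ratio of any V-type gene, although ATP6V1A was higher after rescaling (1.59 against 1.52) and with a pseudocount of 5 (0.39 against 0.33). ATP6V0A2, ENSG00000185344.13_1, lies on chromosome 12 from 124196865 to 124246302 (hg19, plus strand). Both entered the table through the RIP alone. TCIRG1 encodes a further a subunit but is named otherwise and was not counted as a member. It had 6.41 FPKM in the RIP against 4.10 in the input, a ratio of 0.54.

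In the V1 sector, the 3 lowest genes were ATP6V1E1, ATP6V1D and ATP6V1F. ATP6V1E1, a subunit of the outer (peripheral) stalk, had 1.42 FPKM in the RIP against 36.1 in the input (-3.94, 15.3-fold lower). ATP6V1D, a subunit of the rotor like ATP6V1F, had 0.742 and 7.57 FPKM (-2.30), and its locus overlaps 41449 bases of MPP5 on the opposite strand, which had 1.66 FPKM in the RIP against 0.249 in the input. ATP6V1F had 16.7 FPKM in the RIP against 70.8 in the input (-2.02), and was the most abundant V-type mRNA of the RIP. Relative to genes of like span, ATP6V1F was at -0.57, above ATP6V1H (-1.48), ATP6V1B2 (-0.88), ATP6V1E2 (-0.82) and ATP6V1C1 (-0.74).

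The genes of the catalytic head of V1 lay on either side. ATP6V1A encodes the A subunit, which hydrolyses ATP, and had 2.63 FPKM in the RIP against 0.824 in the input (0.99). ATP6V1B2 encodes the B subunit with which it alternates in the head, and had 1.09 and 2.33 FPKM (-0.67). After rescaling, ATP6V1B2 was at -0.08 and ATP6V1A at 1.59.

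The other V1 genes lay within 1.5-fold of the input. ATP6V1G1, a peripheral stalk subunit, had 3.79 FPKM in the RIP against 5.88 in the input (-0.52). ATP6V1H and ATP6V1C1, which regulate the joining of V1 to V0, had 2.38 and 1.69 FPKM in the RIP and 3.54 and 2.11 in the input (-0.43 and -0.21). ATP6V1E2, a paralog of ATP6V1E1 best known from testis, had 0.257 FPKM in the RIP against 0.536 in the input (-0.29), the only member that entered the table through the input alone. After rescaling, ATP6V1G1, ATP6V1H and ATP6V1C1 were above 0 (0.28, 0.30 and 0.43).

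The accessory protein genes also differed. ATP6AP1, a luminal protein needed for assembly of V0, had 2.77 FPKM in the RIP against 9.58 in the input (-1.49). ATP6AP2, also known as the prorenin receptor, had 1.52 and 1.18 FPKM (0.21), which was below 0 once ratios were centred on the median gene (-0.07). Across the 18 V-type genes, levels were more alike in the RIP than in the input, with a standard deviation over genes of 0.91 and 2.12 on the log2(FPKM + 1) scale. For P-type genes these were 1.20 and 1.47, and over all rows 1.62 and 1.96, so the narrower spread in the RIP was not particular to V-type genes. RIP and input levels had a Spearman's rho of 0.50 over the 18 V-type genes, 0.64 over the 22 P-type genes and 0.39 over all rows, given as a description, since all points come from the same pair of libraries.

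**Figure D2:**
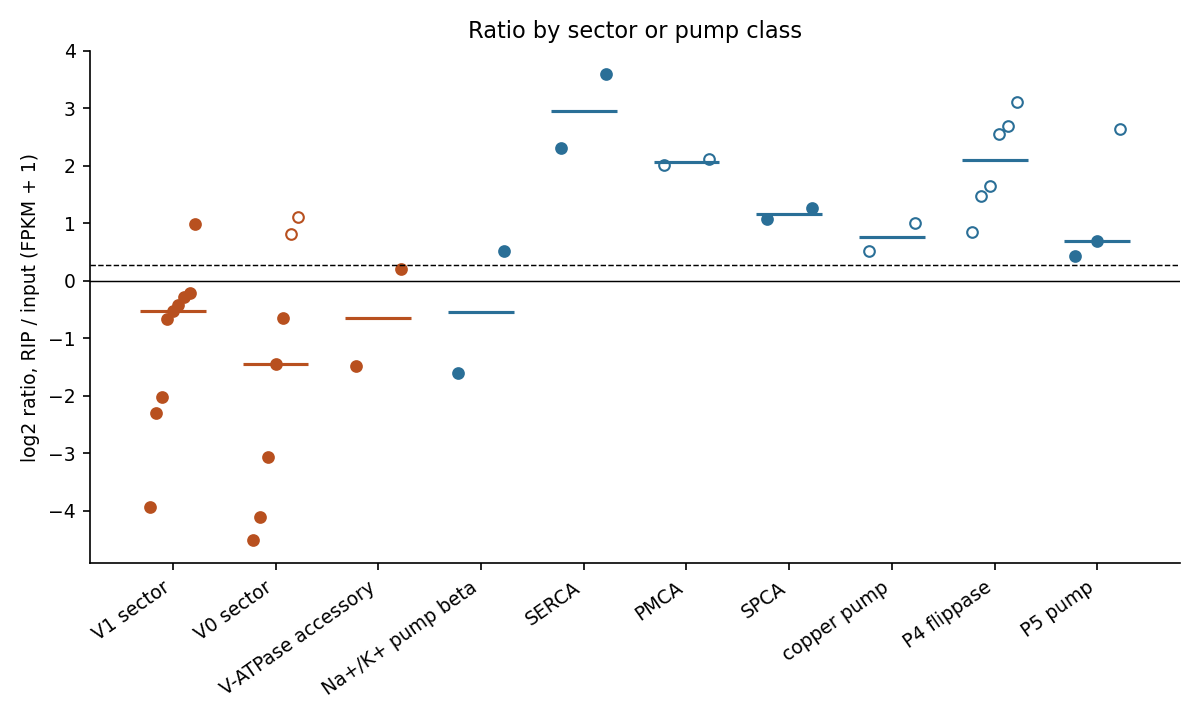
Log2 ratio of RIP over input (FPKM + 1) by sector of the V-ATPase (brown) or class of P-type pump (blue), a point for each gene drawn and a bar at their median; open points are genes under 0.5 FPKM in the input, and the dashed line is the median of all rows (0.28). Each flippase drawn lay above it, but all were under 0.5 FPKM in the input, so that their direction was set by entry into the table. The V0 sector ran from -4.51 to 1.11.

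Among the classes of P-type pump, the calcium pumps of the endoplasmic reticulum (SERCA) had the highest median ratio, 2.95 over 2 genes. ATP2A2 encodes SERCA2, the housekeeping form, and had 23.7 FPKM in the RIP against 1.05 in the input. Its ratio of 3.60 (12.1-fold) was the highest of the family, at percentile 98.2 of all rows. With a pseudocount of 0.1, ATP11A (6.08) and ATP13A3 (5.08), both scarce in the input, were above ATP2A2 (4.38). ATP2A2, ENSG00000174437.16_1, lies on chromosome 12 from 110718561 to 110788898 (hg19, plus strand). ATP2A3 encodes SERCA3, a form found in epithelial and blood cells, and had 10.2 FPKM in the RIP against 1.26 in the input (2.30, 4.94-fold). That ratio was below those of other P-type genes, ATP11A (3.12) and ATP8B2 (2.69) among them. ATP2A2 and ATP2A3 were above 0.5 FPKM in the input and so did not owe their row to the RIP.

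Calcium pumps of other membranes were higher in the RIP too. The plasma membrane pump genes ATP2B1 and ATP2B4 had 4.98 and 4.83 FPKM in the RIP and 0.473 and 0.336 in the input, with ratios of 2.02 and 2.13, and had a row through the RIP alone, which set that direction. The Golgi pumps, which also carry manganese, had lower ratios. ATP2C1 had 3.38 FPKM in the RIP against 0.830 in the input (1.26), and ATP2C2, its paralog in secretory epithelia, had 2.84 and 0.824 FPKM (1.07). Relative to genes of like span, ATP2C1 and ATP2C2 were at 0.26 and 0.16, and ATP2B1 and ATP2B4 at 0.96 and 1.07.

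The beta subunits of the sodium-potassium pump, which the pump needs for folding and delivery to the membrane, differed from each other. ATP1B3 had 14.3 FPKM in the RIP against 45.3 in the input, and at -1.60 (3.03-fold lower) was the P-type gene on the other side. ATP1B3, ENSG00000069849.10_1, lies on chromosome 3 from 141594966 to 141645356 (hg19, plus strand). ATP1B1, its paralog, had 1.59 and 0.811 FPKM (0.51).

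The 7 flippase genes were all higher in the RIP by 1.5-fold or more, 4 of them by 4-fold or more. All 7 were under 0.5 FPKM in the input, between 0.0174 and 0.362 FPKM, so that direction was set by entry into the table. ATP11A had 7.84 FPKM in the RIP against 0.0174 in the input (3.12, 8.69-fold), and ATP8B2 had 7.77 and 0.362 FPKM (2.69). ATP9A, a protein of endosomes, had 6.42 FPKM in the RIP against 0.269 in the input (2.55). ATP8B1, mutated in an inherited cholestasis, had 3.14 and 0.326 FPKM (1.64), ATP11B had 2.66 and 0.308 (1.48), and ATP10D had 1.01 and 0.119 (0.84). In the RIP the flippases thus spanned 1.01 to 7.84 FPKM.

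The P5 pumps of the endoplasmic reticulum and the endolysosome differed among themselves. ATP13A1, which removes misplaced membrane segments from the endoplasmic reticulum, had 7.33 FPKM in the RIP against 5.16 in the input (0.44). ATP13A2, a lysosomal polyamine exporter, had 12.3 and 7.24 FPKM (0.69). ATP13A3, which takes part in polyamine uptake, had 5.64 FPKM in the RIP against 0.0691 in the input (2.63, 6.21-fold). The first pair was measured in both libraries, whereas ATP13A3 entered through the RIP alone.

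The copper pumps were among the scarcest P-type mRNAs. ATP7A had 1.03 FPKM in the RIP against 0.0185 in the input (1.00), and ATP7B had 0.511 and 0.0491 FPKM (0.53), which was just enough for a row. Both had a row through the RIP alone. The locus of ATP7A holds PGAM4 on the opposite strand, a gene with 12.2 FPKM in the RIP against 17.9 in the input. At these levels both ratios are set largely by the pseudocount of 1.

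Locus span moved with the ratio, in the family as in the table. Over all rows, the median ratio ran from -1.45 in the shortest of 20 bins of span (up to 3.44 kb) to 1.06 in the bin of 109 to 141 kb, with a Spearman's rho of 0.37 across genes. The rho was 0.59 over the 40 members, 0.49 within V-type and 0.37 within P-type. P-type loci were the longer, with a median of 95.7 kb against 40.0 kb. Relative to genes of like span, 18 P-type genes lay above and 4 below, whereas 12 V-type genes lay below and 5 above, and ATP6V1G1 was itself the median of its bin. On this scale the medians were 0.76 and -0.82, a difference of -1.58. Of genes with a span between 18.5 and 128 kb, the range in which both types occur, 12 V-type genes had a median ratio of -0.36 and 15 P-type genes a median of 1.23. The part of span in the contrast was not tested.

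**Figure D3:**
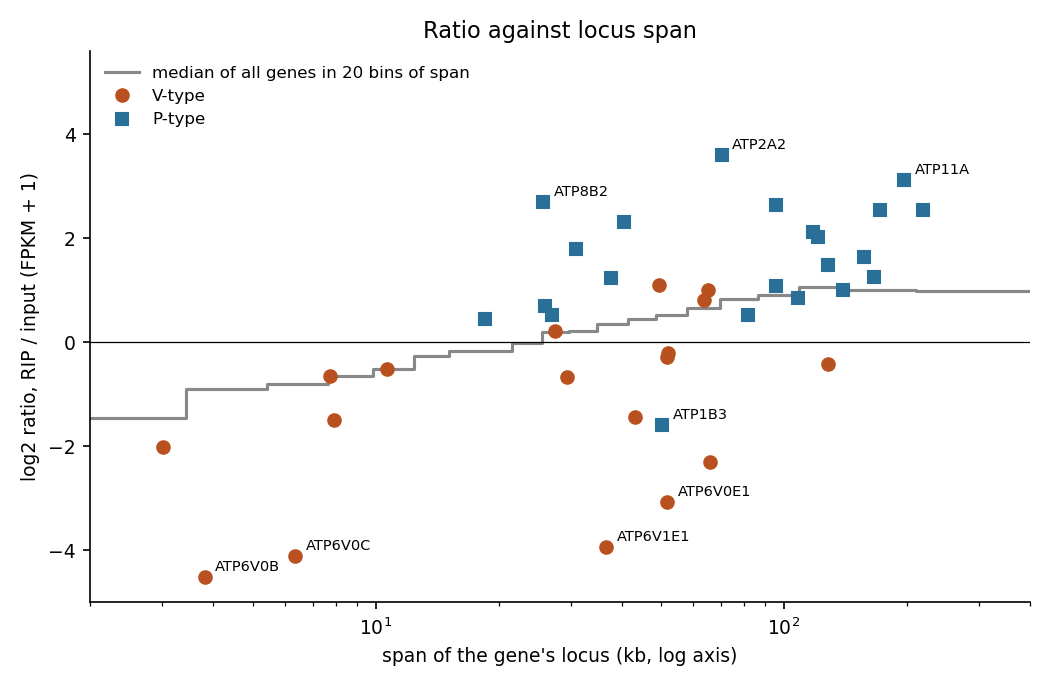
Log2 ratio of RIP over input (FPKM + 1) against the span of the gene's locus in kb (log axis) for V-type (brown circles) and P-type genes (blue squares); the grey line is the median of all rows in each of 20 bins of span. ATP6V1E1 and ATP6V0E1 lay at -3.94 and -3.07 at spans of 36.7 and 51.7 kb, where the median of all rows was between 0.36 and 0.53, and ATP8B2 lay at 2.69 at 25.8 kb.

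The ratios of some members of like span are given as examples, without a test. ATP6V0E1, ATP6V1E2, ATP6V1C1 and ATP1B3 had spans of 51.7, 51.8, 52.0 and 50.4 kb and ratios of -3.07, -0.29, -0.21 and -1.60. ATP6V0A2 was at 1.11 with 49.4 kb. ATP6V0E2 and ATP6V0C had spans of 7.73 and 6.35 kb and ratios of -0.64 and -4.11.

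To see where these genes stood among other pumps, they were set beside ABC transporters, which also use ATP to move solutes, and genes with the ATP5 prefix, mostly subunits of the mitochondrial ATP synthase, the rotary relative of the V-ATPase. The background for both lists was 42.6% of all rows higher by 1.5-fold or more and 34.7% lower. With at least 0.5 FPKM in the input it was 30.6% and 44.5%. The 22 ABC genes had a median ratio of 0.97, from ABCB8 (-0.12) to ABCC1 (2.89). Of these, 14 were higher by 1.5-fold or more (63.6%) and none lower, and with at least 0.5 FPKM in the input 10 of 17 were higher. The 18 ATP5 genes, which include a readthrough (ATP5J2-PTCD1), ATP5EP2 and ATP5SL, had a median of -3.83, with 17 lower by 1.5-fold or more, from ATP5J2 (-4.71) to ATP5A1 (0.68). Without the 2 listed at 0 in the RIP (ATP5J2-PTCD1 and ATP5EP2) their median was -3.87. The V-type median (-0.66) lay between that of the ATP5 genes and that of all rows. The P-type median (1.56) was above that of the ABC genes, but 54.5% of P-type and 22.7% of ABC genes had a row through the RIP alone, and with at least 0.5 FPKM in the input the medians were 1.15 and 0.92. No test of these differences was possible.

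Genes that work with the V-ATPase had members on both sides. Of 25 listed genes for assembly factors, regulators and the lysosomal Ragulator and Rag proteins, 22 had a row, with a median of -0.35. Of these, 7 were higher by 1.5-fold or more (31.8%) and 10 lower (45.5%), beside 42.6% and 34.7% of all rows. Of the higher genes, DMXL1, DMXL2, OXR1, RRAGA, TBC1D24 and WDR7 were under 0.5 FPKM in the input. Their direction was thus set by entry into the table, whereas that of RRAGD (0.71) was not. The shares among genes with at least 0.5 FPKM in the input (30.6% and 44.5%) leave such genes out and are not on the same footing. Among the 18 genes above 0 in both libraries the median was -0.21. The 3 listed at 0 in the RIP, whose direction was set likewise, were VMA21, LAMTOR3 and RRAGB. Ragulator docks mTORC1 signalling on the lysosome through contact with the V-ATPase, and 4 of its genes had the lowest ratios of the list. LAMTOR5 had 0.571 FPKM in the RIP against 40.9 in the input (-4.74), LAMTOR2 had 1.32 and 56.8 (-4.64), LAMTOR1 had 4.19 and 36.1 (-2.84) and LAMTOR4 had 9.13 and 65.3 (-2.71). VMA21, an assembly factor of V0, was listed at 0 in the RIP and at 3.11 FPKM in the input. RRAGA, a Rag GTPase, was listed at 0 in the input and at 8.18 FPKM in the RIP. The other 14 genes above 0 in both libraries lay between TMEM199 (-1.58) and DMXL2 (1.38).

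Genes that work with P-type pumps were also on both sides. Of 31 listed, 19 had a row, with a median of -1.25. Of these, 10 were lower by 1.5-fold or more (52.6%) and 5 higher (26.3%), beside 34.7% and 42.6% of all rows. As 5 were listed at 0 in the RIP and 1 in the input, the median of -1.25 rests on them in part. Among the 13 above 0 in both libraries the median was -0.16. Entry into the table set the direction of the 5 at 0 in the RIP. It also set that of STIM1, ITPR1 and ITPR2 among the higher genes, which were under 0.5 FPKM in the input, but not that of ITPR3 and NPTN. The shares among genes with at least 0.5 FPKM in the input (44.5% lower and 30.6% higher) are therefore not on the same footing. The FXYD genes encode small single-span proteins that tune the sodium-potassium pump. FXYD5, FXYD3 and FXYD1 were listed at 0 in the RIP, with 56.4, 10.3 and 5.21 FPKM in the input. Of the copper route, COMMD1 was listed at 0 in the RIP and at 16.7 FPKM in the input, and ATOX1, which hands copper to the ATP7 pumps, had 0.745 and 12.8 FPKM (-2.98). TMEM30A, the subunit that most flippases need to leave the endoplasmic reticulum, had 1.41 and 1.70 FPKM (-0.16).

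Genes for calcium release from the endoplasmic reticulum and for calcium entry when that store is empty were on both sides as well. ITPR3, a calcium release channel of the endoplasmic reticulum, had 57.4 FPKM in the RIP against 2.82 in the input (3.93). STIM1, which senses calcium in the endoplasmic reticulum, had 7.59 and 0.440 FPKM (2.58), and ITPR1 was listed at 0 in the input and at 3.85 FPKM in the RIP. ORAI1, the plasma membrane channel that STIM1 opens, had 2.27 and 19.6 FPKM (-2.66). SLC31A2 was listed at 0 in the RIP, and the other 8 genes lay between CALM2 (-1.68) and ITPR2 (1.95). STIM1, ITPR1 and ITPR2 were under 0.5 FPKM in the input and had a row through the RIP alone, which set their direction.

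**Figure D4:**
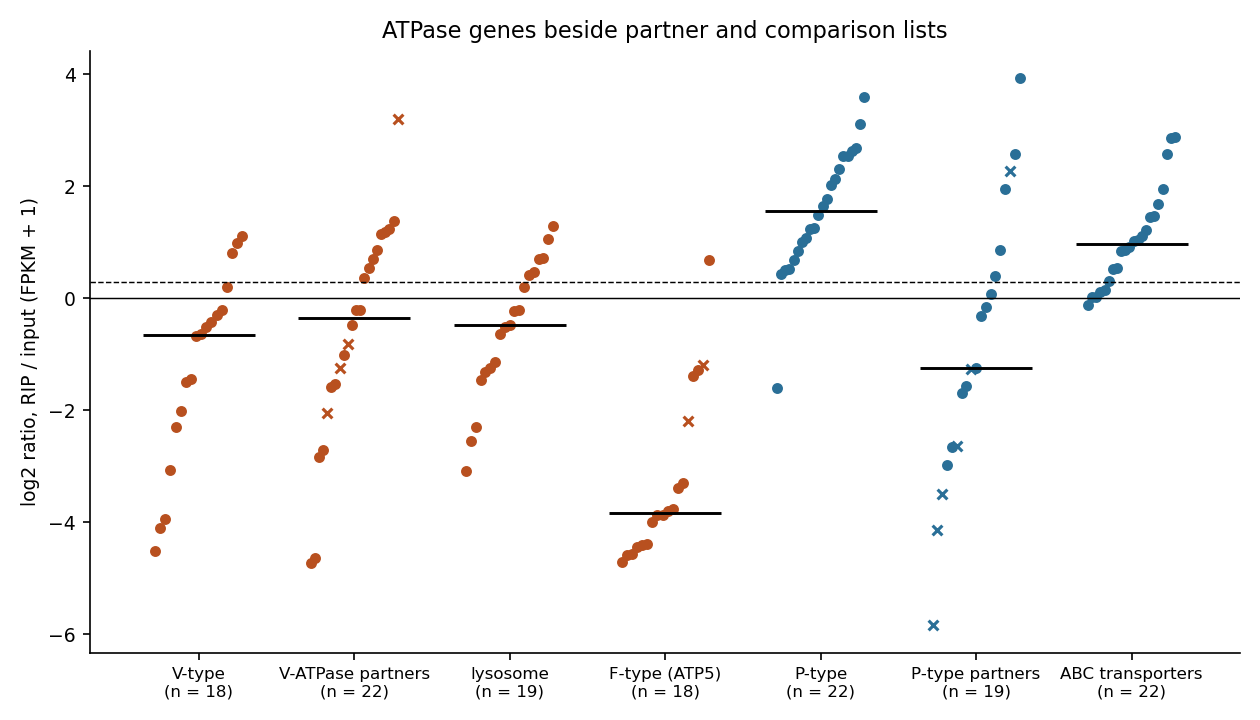
Log2 ratio of RIP over input (FPKM + 1) of V-type and P-type genes beside their partner lists, lysosomal genes, ATP5 genes and ABC transporters, a point for each gene and a bar at the median; crosses are genes listed at 0 in a library, whose ratio is no fold, and the dashed line is the median of all rows (0.28). The P-type pumps had a median of 1.56 and their partners of -1.25, or -0.16 without genes listed at 0.

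Other genes of the lysosome, which the V-ATPase acidifies, were on both sides. Of 20 listed genes, 19 had a row, with a median of -0.48. Of these, 8 were lower by 1.5-fold or more (42.1%) and 4 higher (21.1%), beside 34.7% and 42.6% of all rows. After rescaling the median of the list was 0.34, with 12 of 19 above 0. Of the higher genes, NPC1 and OSTM1 were under 0.5 FPKM in the input, so that entry into the table set their direction. That of TFE3 (0.71) and CLCN7 (1.07) was not so set. The shares among genes with at least 0.5 FPKM in the input (44.5% lower and 30.6% higher) leave genes like NPC1 and OSTM1 out and are not on the same footing. The soluble proteins NPC2 (2.93 FPKM in the RIP against 32.5 in the input), CTSA (2.80 and 21.3) and GLA (3.40 and 20.6) were at least 4-fold lower. Of the others, CTSD, a protease, was at -1.32, and OSTM1, a partner of a lysosomal chloride transporter, was the highest at 1.29.

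Near-identical copies could affect some levels. RefSeq lists pseudogenes under the symbols of 8 members, with 7 for ATP6V1G1, 4 each for ATP6V0C and ATP6V0E1 and 3 for ATP6V1E1. The sources used here do not say how reads shared with such copies were assigned, and the values of these genes are uncertain to that extent.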

How the data were processed

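RNA of a CNBP precipitate and input RNA from HCT116 cells were sequenced as 1 library each after stranded library preparation. The authors deposited FPKM per gene, and build hg19 with cutadapt, FastQC, HISAT2 and StringTie is listed in the submitters' processing notes (roles and versions are not). The sources used here do not say whether counting used strand. Every row had at least 0.5 FPKM in 1 or both libraries (lowest higher value 0.500), so genes scarce in both were not counted. A total of 14 rows of the table share a symbol with another row, none of them a member.

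Ratios were formed with a pseudocount of 1, as in the study. Genes were counted at log2 ratios of 0.58 (about 1.5-fold) and 2 (4-fold, the rule of the study for CNBP-enriched genes), which are rules of size, since no test was possible. Percentiles were taken over all 10836 rows. Span was the length of the locus in the table, split into 20 bins of equal size. The depth is unknown, so no interval is given. Every member was named except 3 P-type genes, which are not reported here singly but are in all counts, medians and sums. Of partner and lysosome lists, genes at least 4-fold apart were named, and of ABC and ATP5 genes the highest and the lowest. LAMTOR3, RRAGB, SLC31A2, TCIRG1, TMEM30A, CTSD, the ends of the other ranges and the odd ATP5 symbols were named after their values were seen. So were the higher genes of the lists that were named for their input level. The members and lists were chosen with earlier results of these data known.

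Symbols of all 40 members matched RefSeq (GRCh38.p14), whose coordinates differ from those of hg19. Start windows were matched by symbol for 27 members, those of ATP2A3, ATP2C2, ATP8B1, ATP11B, ATP6V0E1, ATP6V1A, ATP6V1B2, ATP6V1C1, ATP6V1E2 and ATP6V1H not among them. Alternatives were pseudocounts of 0.1 and 5, filters on FPKM, rescaling, centring on the median gene or on genes of like span, P-type genes without beta subunits, and summing of rows with a shared symbol. Calculations used Python 3.11.15, pandas 2.3.3 and numpy 2.4.6, and the scripts were tested on simulated data.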

Additional observations from a re-analysis of the deposited data

How the results depend on the processing

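The difference of medians (V-type minus P-type), -2.22 as reported, kept its sign under all 10 alternatives. Centring on the median gene and summing of shared symbols are among the 10 but could not change it. It was -3.77 with a pseudocount of 0.1 and -1.11 with a pseudocount of 5. With a mean FPKM of at least 1 it was -3.22, with at least 1 FPKM in both libraries -2.31 (12 V-type and 7 P-type genes), and with at least 0.5 FPKM in the input, chosen after seeing the data, -2.21. Rescaling of both libraries gave -2.23, leaving out beta subunits -2.37, and centring on genes of like span -1.58. Centring on the median gene, which shifts every ratio alike, and summing of shared symbols, which touched no member, left it at -2.22.

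The count of V-type genes at least 1.5-fold lower stayed within 1.5 times its reported value under each alternative. The count of P-type genes at least 1.5-fold higher, 18 of 22, was 5 of 7 with at least 1 FPKM in both libraries and 7 of 10 with at least 0.5 FPKM in the input, where fewer genes were counted. With all 22 counted, it was 12 with a pseudocount of 5, 13 relative to genes of like span and 16 relative to the median gene, and 20 and 21 with a pseudocount of 0.1 and after rescaling.

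Of genes past 1.5-fold, ATP6V0E2 turned sign after rescaling (0.20) and relative to genes of like span (0.013). ATP10D (-0.070) and ATP7A (-0.062) turned relative to genes of like span; the cause was not tested. No paired analysis was possible because each group has 1 library, and no library could be left out.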
